A study of Chlorocebus sabaeus with 6 samples.

Results

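The genes described here are 10 known for feedback on the ERK1/2 kinases: the phosphatases DUSP1, DUSP2, DUSP4, DUSP5 and DUSP6, the Sprouty genes SPRY2 and SPRY4, the SPRED genes SPRED1 and SPRED2, and PHLDA1. Their rows were found by the identifier of the human protein that names each row, a rule that uses no measured value, although the list was drawn up with earlier results of these data known. All 10 had exactly 1 row among the 51520 of the expression table. The RNA came from COS-1 cells, an African green monkey kidney line transformed with simian virus 40 sequences, as 3 libraries of untreated control cells and 3 of lentivirus-treated cells. Cells of both groups had gone without serum for 14 h and had then received 2 ng/ml of the growth factor EGF over 90 min, so every value below belongs to the EGF-treated state and no unstimulated library was analysed. The series title names SHOC2, a scaffold that helps RAS to activate RAF, but what the lentivirus carried is absent from the labels, and the control is given as no treatment, so exposure to virus and any effect of its cargo cannot be told apart. The labels do not state whether replicates are separate cultures, so the spread that p-values measure may be technical.

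Growth factor receptors pass their signal through RAS, RAF and MEK to the kinases ERK1 and ERK2, and active ERK switches on genes whose products turn the pathway down again. The DUSP proteins remove the activating phosphates from ERK and related kinases, with DUSP1, DUSP2, DUSP4 and DUSP5 found mainly in the nucleus and DUSP6 in the cytoplasm. Sprouty and SPRED proteins act further up, between the receptor and RAF, and SPRED proteins bring the RAS inhibitor neurofibromin to the membrane. PHLDA1, a protein with a pleckstrin-homology-like domain, is often read as a transcriptional marker of ERK output.

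The 10 genes did not move together. SPRY2 rose 1.86-fold in the lentivirus-treated libraries and SPRED1 fell 1.49-fold, among neighbouring loci that were mostly lower too. DUSP5 was 1.41-fold higher on its own row, just short of the test's threshold, and rose 1.65-fold as a locus of 4 rows, in which each row overlaps at least 1 other but not always the DUSP5 row itself. DUSP1, the most abundant phosphatase, DUSP4, DUSP6, SPRED2 and PHLDA1 did not pass the test on either reading. DUSP2 and SPRY4 had means under 1 FPKM (a fragment count divided by feature length and library size), and their own rows were not tested. In bulk RNA, fewer cells expressing a gene and less RNA per cell cannot be told apart.

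**Figure D1:**
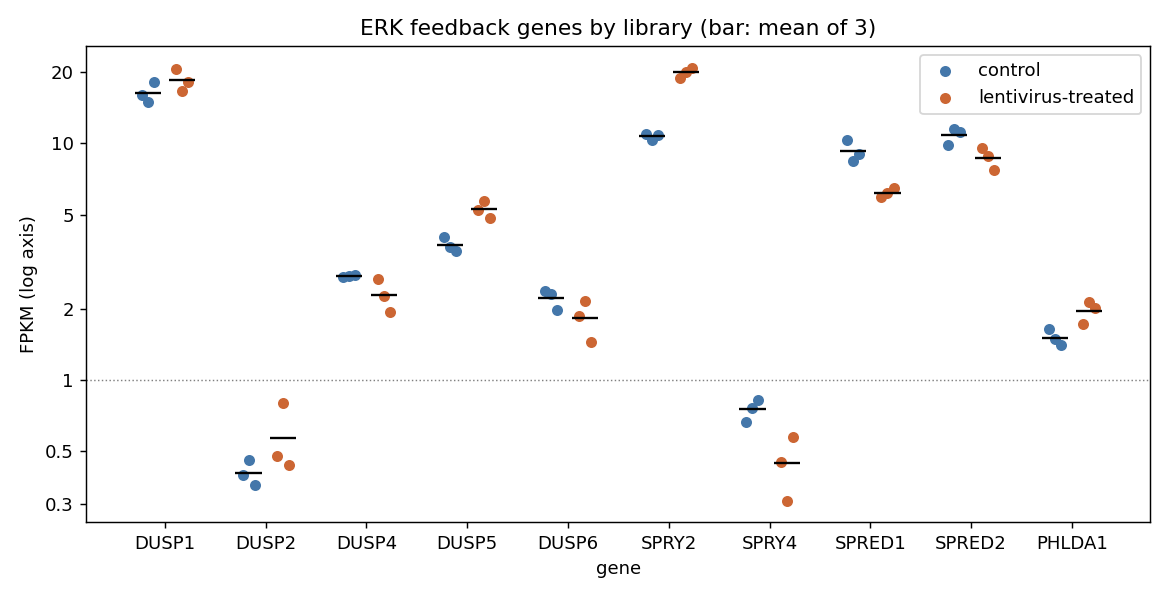
FPKM of the 10 genes on a log axis, with 1 point per library, control and lentivirus-treated side by side, and a bar at the mean of 3 libraries; the dotted line marks 1 FPKM. SPRY2 lies near 10.7 FPKM in control and 19.9 FPKM in lentivirus-treated libraries with no overlap, while the groups overlap for DUSP1, DUSP2 and DUSP6.

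The test was limma on log2(FPKM + 1) over all rows with a mean of at least 1 FPKM, with Benjamini-Hochberg adjustment over all of them and a call at an adjusted p under 0.05. A change on this scale understates that of low genes. Of the 28434 rows tested, 6.48% were called (2.89% higher and 3.59% lower). Of the 8 feedback genes tested on their own row, 1 was called higher (SPRY2) and 1 lower (SPRED1). Their median change was -0.015 log2, against -0.00097 over all tested rows, and their median absolute change was 0.26 log2, against 0.16. Because overlapping rows share reads, the test was repeated on loci, in which the FPKM of overlapping rows was summed; such a sum is not a level per length and is compared between groups only. There 19.5% of 16073 loci were called (8.88% higher and 10.6% lower), and 9 feedback genes were tested, of which 2 were called higher (SPRY2 and DUSP5) and 1 lower (SPRED1). Their median change was 0.17 log2, against -0.0056 over all tested loci, and their median absolute change was 0.29 log2, against 0.14. SPRY2, SPRY4, SPRED1, SPRED2 and PHLDA1 each had a locus of 1 row, so both readings of these 5 rest on the same values and differ only in what they were tested among.

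**Figure D2:**
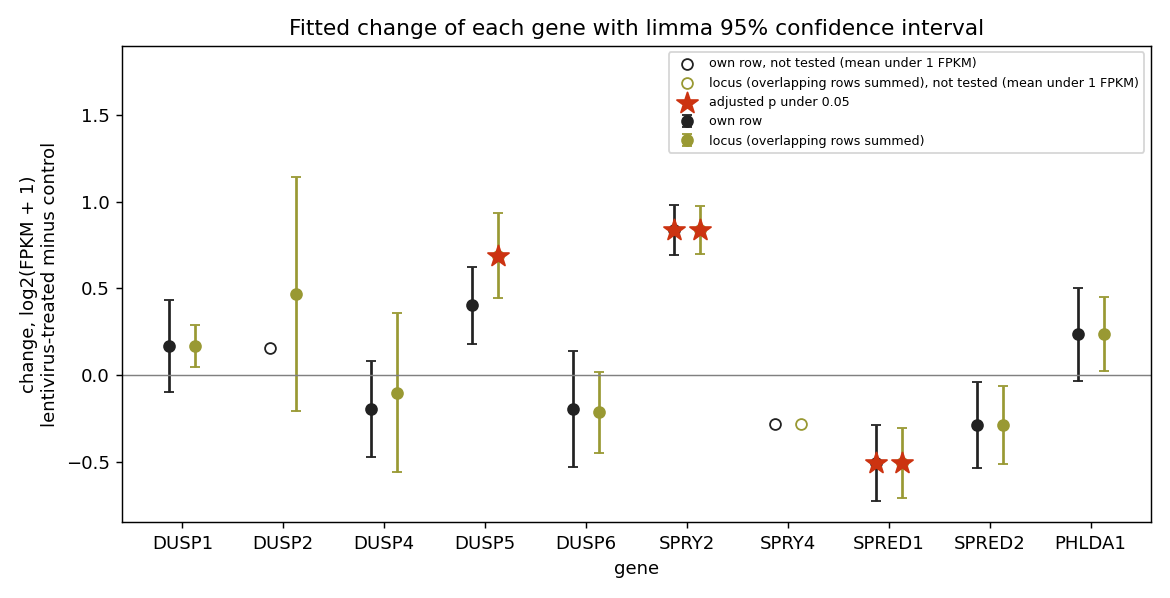
Fitted change on the log2(FPKM + 1) scale, lentivirus-treated minus control, with limma 95% confidence intervals, for each gene's own row and for its locus; stars mark an adjusted p under 0.05 and open circles mark values not tested. SPRY2 and SPRED1 are called on both readings, at 0.84 and -0.51 log2, and DUSP5 on its locus, at 0.69 log2.

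Among the phosphatases, DUSP1 had the highest level. DUSP1, also known as MKP-1, is an immediate early gene induced within minutes by growth factors and stress. Its row (ENSP00000239223_1, chromosome 23, 74932100 to 74934240) read 15.9, 14.9 and 18.1 FPKM in control and 20.5, 16.6 and 18.2 FPKM in lentivirus-treated libraries. The groups overlapped, and the change of 0.17 log2 (SE 0.11) had a limma adjusted p of 0.407 with a 95% interval of -0.10 to 0.43 log2. An overlapping row, JK089083.1, held a similar signal, at 16.4 ± 0.315 FPKM in control against 18.6 ± 2.01 FPKM after lentivirus treatment (SD, n = 3). With all 4 overlapping rows summed, the locus read 33.4 ± 1.28 and 37.6 ± 1.40 FPKM without overlap of the groups, a 1.13-fold difference with a limma adjusted p of 0.0653.

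DUSP5, a nuclear phosphatase with a marked preference for ERK, did not pass the test on its own row. Of the 5 phosphatase loci, that of DUSP5 alone passed. Its row (ENSP00000358596_1, chromosome 9, 103435383 to 103447982) read 4.03, 3.65 and 3.51 FPKM in control and 5.24, 5.70 and 4.83 FPKM in lentivirus-treated libraries. All 3 lentivirus-treated libraries lay above all 3 controls, and the change was 0.40 log2 (SE 0.089, 95% interval 0.18 to 0.62; limma adjusted p = 0.0602). By exact permutation the two-sided p was 0.10, the smallest that 3 against 3 libraries allow. The same test gave 0.10 for the rows of SPRY2, SPRED1, DUSP4, SPRY4, SPRED2 and PHLDA1, so this value does not set DUSP5 apart.

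The locus of DUSP5 holds 3 more rows, none of them named by a protein. JK109765.1, which lies almost wholly inside the DUSP5 row, ran from 0.000223 to 3.82 FPKM among the controls and from 3.06 to 4.10 FPKM in the lentivirus-treated libraries. That spread within the controls is the widest of the 4 rows. JK117245.1 reaches past the end of the DUSP5 row and read 2.58 ± 0.684 FPKM in control against 5.16 ± 0.543 FPKM (SD, n = 3), with groups that did not overlap and a limma adjusted p of 0.0504. JK103279.1, which overlaps JK117245.1 but not the DUSP5 row, read 4.93 ± 1.06 and 7.16 ± 0.355 FPKM (limma adjusted p = 0.114). No row passed alone, and each had a higher mean after lentivirus treatment. Summed, the locus read 11.0, 12.7 and 14.7 FPKM in control and 22.0, 20.8 and 20.6 FPKM in lentivirus-treated libraries. By mean, the DUSP5 row made up 3.73 of 12.8 FPKM in control and 5.25 of 21.1 FPKM after lentivirus treatment. Most of the rise of the locus was thus on the unnamed rows. The locus rose by 0.69 log2 (SE 0.10, limma adjusted p = 0.00832). The call held without any 1 of the 6 libraries, with changes of 0.59 to 0.79 log2. Whether the unnamed rows are parts of the DUSP5 transcript was not tested, and the table gives no strand.

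**Figure D3:**
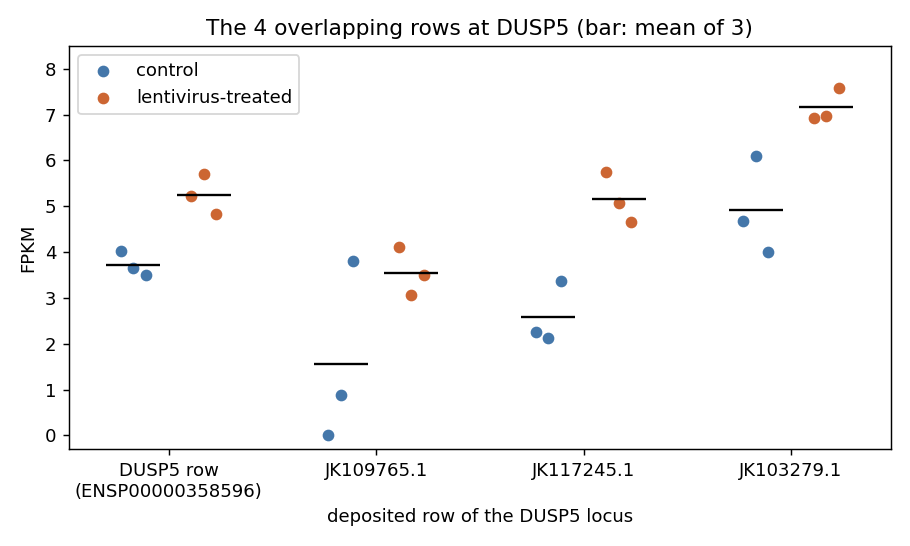
FPKM of the 4 overlapping rows that make up the DUSP5 locus, with 1 point per library and a bar at the mean of 3. Each row has a higher mean in lentivirus-treated libraries, and the control values of JK109765.1 spread from near 0 to 3.82 FPKM.

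DUSP6 and DUSP4 had lower means in the lentivirus-treated libraries, neither of which passed the test. DUSP6, the cytoplasmic ERK phosphatase that is widely used as a readout of ERK activity, read 2.39, 2.30 and 1.98 FPKM in control and 1.87, 2.17 and 1.45 FPKM in lentivirus-treated libraries (ENSP00000279488_1, chromosome 11, 84743129 to 84745886). The groups overlapped, the limma adjusted p was 0.436, and the 95% interval of -0.53 to 0.14 log2 holds both a sizeable fall and a small rise. DUSP4, an ERK-induced nuclear phosphatase, read 2.73, 2.74 and 2.79 FPKM in control and 2.66, 2.27 and 1.93 FPKM in lentivirus-treated libraries (ENSP00000240100_1, chromosome 8, 27460262 to 27473352). Its groups did not overlap, but the 3 controls lay far closer together than the 3 lentivirus-treated libraries, and the limma adjusted p was 0.348 (95% interval -0.47 to 0.08 log2). Summing the single row that overlaps DUSP4, JK117552.1, widened the spread, since that row was near 0 in control replicate 3 only, at 0.000352 FPKM, and the locus had a limma adjusted p of 0.755.

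DUSP2, a phosphatase best known from activated lymphocytes, was barely expressed. Its row (ENSP00000288943_1, chromosome 14, 581330 to 582848) read 0.396, 0.459 and 0.360 FPKM in control and 0.479, 0.800 and 0.436 FPKM in lentivirus-treated libraries, with overlap. Its locus of 9 rows reached 3.32 ± 0.882 and 5.17 ± 2.37 FPKM (SD, n = 3) and had a limma adjusted p of 0.294.

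Taking the 5 phosphatase rows as a pool, DUSP1 supplied most of the signal in every library, from 60.2% to 67.8% of their summed FPKM. The pool holds each gene's own row only, so these shares depend on how signal was split among overlapping rows. Shares of a pool also add up to the whole, so they are not independent of each other. Of the other phosphatases, DUSP5 and DUSP4 had shares that differed between the groups without overlap. The share of DUSP5 was 14.7 ± 1.41% in control against 18.6 ± 1.92% after lentivirus treatment (SD, n = 3), and DUSP4 held 10.8 ± 0.484% and 8.04 ± 0.754%. The groups overlapped for the shares of DUSP6, at 8.78 ± 1.18% and 6.45 ± 1.29%, and of DUSP2, at 1.60 ± 0.281% and 2.03 ± 0.763%. The ratio of DUSP5 to DUSP6, both ERK phosphatases but of nucleus and cytoplasm, was 1.69, 1.59 and 1.77 in control and 2.80, 2.63 and 3.34 in lentivirus-treated libraries. These shares and ratios, and those below, were picked with the values known and are given as descriptions with no test.

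The largest change among the 10 genes was that of SPRY2, a Sprouty protein that is itself induced by growth factors and restrains receptor signalling to RAS and RAF. Its row (ENSP00000366306_1, chromosome 3, 59358396 to 59359341, overlapping no other) read 10.9, 10.4 and 10.9 FPKM in control and 18.9, 20.1 and 20.9 FPKM in lentivirus-treated libraries. Each group was tight, with an SD of 2.96% and 4.88% of its mean, and the lowest lentivirus-treated library lay well above the highest control. The change was 0.84 log2 (SE 0.057, 95% interval 0.69 to 0.98) with a limma adjusted p of 0.00835, higher than 97.4% of the changes of all tested rows. Tested among loci, the same values had a limma adjusted p of 0.0015. Among rows, the call was kept in 3 of 6 leave-one-out fits and lost without control replicate 1, control replicate 3 or lentivirus replicate 2 (limma adjusted p = 0.0520, 0.0564 and 0.0562). The changes ran from 0.81 to 0.87 log2 without any 1 library, and among loci the call held in all 6 of these fits.

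SPRY4, the other Sprouty gene on the list and likewise an ERK-induced inhibitor, was low and had a smaller mean in the lentivirus-treated libraries. It read 0.664, 0.765 and 0.825 FPKM in control and 0.450, 0.310 and 0.575 FPKM in lentivirus-treated libraries (ENSP00000344967_1, chromosome 23, 44935715 to 44941562). The groups did not overlap, but the gene fell under the 1 FPKM filter. When all rows with any signal were tested its limma adjusted p was 0.192, and among all loci it was 0.0738. SPRY2 was 13.2 to 16.5 times as abundant as SPRY4 in control libraries and 36.3 to 64.8 times in lentivirus-treated libraries.

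SPRED1, whose loss causes Legius syndrome, a disorder of the RAS pathway, fell. Its row (ENSP00000299084_1, chromosome 26, 44628804 to 44723791, overlapping no other) read 10.3, 8.44 and 8.99 FPKM in control and 5.93, 6.14 and 6.50 FPKM in lentivirus-treated libraries. The groups did not overlap, and the change was -0.51 log2 (SE 0.088, 95% interval -0.73 to -0.29) with a limma adjusted p of 0.0373. Among rows this call was lost without any 1 of the 6 libraries (limma adjusted p = 0.0709 to 0.124), with changes of -0.56 to -0.43 log2, and with no filter on low rows (limma adjusted p = 0.0744). Among loci the call (limma adjusted p = 0.0114) held in all 6 of these fits, but it was lost when the median of the neighbouring loci was subtracted (-0.24 log2, limma adjusted p = 0.153).

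SPRED2, its close relative, had lower values that did not pass the test. It read 9.87, 11.5 and 11.1 FPKM in control and 9.53, 8.85 and 7.71 FPKM in lentivirus-treated libraries (ENSP00000348753_1, chromosome 14, 41574807 to 41697233). The lowest control lay just above the highest lentivirus-treated library, and the change of -0.29 log2 (95% interval -0.54 to -0.04) had a limma adjusted p of 0.153 among rows and 0.0776 among loci. The ratio of SPRED2 to SPRED1 ran from 0.957 to 1.36 in control and from 1.19 to 1.61 in lentivirus-treated libraries, with overlap, so these values do not set the pair's changes apart.

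The balance between SPRY2 and the other Sprouty and SPRED transcripts differed between the groups. SPRY2 and SPRED1 stood at similar levels in control libraries, with ratios of SPRY2 to SPRED1 of 1.06, 1.23 and 1.21. In lentivirus-treated libraries the ratio was 3.19, 3.27 and 3.21. Of the summed FPKM of the 4 Sprouty and SPRED rows, SPRY2 held 34.0 ± 0.550% in control against 56.5 ± 2.11% after lentivirus treatment, and SPRED1 held 29.3 ± 2.78% and 17.5 ± 0.622% (SD, n = 3). The share of SPRED2 was 34.4 ± 3.03% and 24.7 ± 2.88%. That of SPRY4, the other Sprouty, was 2.38 ± 0.262% and 1.26 ± 0.369%, so the share of SPRY2 alone was larger after lentivirus treatment. Because the shares add up to the whole, a larger share of SPRY2 lowers the others even where their own FPKM is unchanged. The sum itself was 31.6 ± 0.435 FPKM in control and 35.3 ± 0.409 FPKM after lentivirus treatment, and the groups did not overlap.

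PHLDA1 stayed low in both groups. It read 1.65, 1.48 and 1.40 FPKM in control and 1.73, 2.14 and 2.01 FPKM in lentivirus-treated libraries (ENSP00000266671_1, chromosome 11, 71626654 to 71627890, overlapping no other). The groups did not overlap, but the change of 0.24 log2 (95% interval -0.03 to 0.50) had a limma adjusted p of 0.256 among rows and 0.116 among loci. Groups that do not overlap were common in these data, at 31.6% of tested rows and 39.9% of tested loci, so their absence of overlap in 6 of the 8 feedback genes tested on their own row is to be read against that.

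By level, which FPKM allows since it is set per length, the order in control was DUSP1 first, at 16.3 ± 1.60 FPKM (SD, n = 3), ahead of SPRED2 (10.8 ± 0.850), SPRY2 (10.7 ± 0.317) and SPRED1 (9.25 ± 0.964), where the range of SPRED2 overlaps those of the other two. DUSP5, DUSP4, DUSP6, PHLDA1, SPRY4 and DUSP2 followed in that order in each of the 3 control libraries, with no overlap between neighbours in the order. In lentivirus-treated libraries SPRY2 (19.9 ± 0.974) and DUSP1 (18.4 ± 1.99) had overlapping ranges at the top, with SPRED2 (8.70 ± 0.921), SPRED1 (6.19 ± 0.287) and DUSP5 (5.25 ± 0.434) next, apart from each other. Further down, DUSP4, PHLDA1 and DUSP6 had overlapping ranges there, and so had DUSP2 and SPRY4. On these rows SPRY2 was the highest of the 10 in 2 of the 3 lentivirus-treated libraries and in no control. The order rests on each gene's own row: signal that overlapping rows share is not in it, and the summed loci of DUSP1 (37.6 ± 1.40 FPKM) and DUSP5 (21.1 ± 0.774 FPKM) in lentivirus-treated libraries (SD, n = 3) stood above the single row of SPRY2, though such sums are not levels per length. DUSP1 and SPRY2 lay above 76.5% and 74.8% of all 51520 rows by mean level, and DUSP6 and PHLDA1 above 51.5% and 50.1%.

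Because neighbouring loci on some chromosomes differed in the same direction, each gene was set beside the nearest 10 tested loci on each side of it. Of all 16073 tested loci, 51.1% had a lower value in lentivirus-treated cells. SPRED1 lies on chromosome 26, where 79.4% of 422 tested loci were lower. Of its 20 neighbours, 17 were lower, 10 were called lower and 0 higher, and their median change was -0.25 log2, against -0.51 for SPRED1; 4 of the 20 fell as far or further. When the median of the neighbours was subtracted in each library, a step chosen after seeing the data, SPRED1 was no longer called. What the fall of its neighbours has to do with that of SPRED1 was not tested.

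The loci of SPRY2 and DUSP5 lay above all 20 of the loci around each. The neighbours of SPRY2 had a median change of 0.08 log2, with 4 called higher and 4 called lower, and 0 of 20 rose as far. That median pools 2 sides, each with values of both signs. In order of position, the 10 loci before SPRY2 read 0.09, 0.38, 0.44, 0.16, -0.04, -0.41, 0.47, 0.48, 0.23 and 0.56 log2. The 10 after it read -0.30, -0.12, -0.07, 0.06, 0.07, 0.23, 0.14, -0.54, -0.33 and -0.12 log2. What the changes of these loci have to do with that of SPRY2 was not tested. The neighbours of DUSP5 had a median of -0.0018 log2, with 3 called higher and 4 lower, and 0 of 20 rose as far. With the neighbours subtracted, SPRY2 still rose by 0.74 log2 (limma adjusted p = 0.00362) and DUSP5 by 0.69 log2 (limma adjusted p = 0.0131). SPRY4 had a lower value among neighbours that were mostly higher, 16 of 20, with a median of 0.17 log2. Around SPRED2, 1 of 20 neighbours fell as far or further, on chromosome 14, where 69.1% of 567 tested loci were lower. Around DUSP4 and DUSP6, 14 of 20 neighbours of each were lower. As far or further fell 11 of 20 around DUSP4 and 7 of 20 around DUSP6. With the neighbours subtracted, the change of the DUSP4 locus went from -0.10 to -0.0064 log2.

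**Figure D4:**
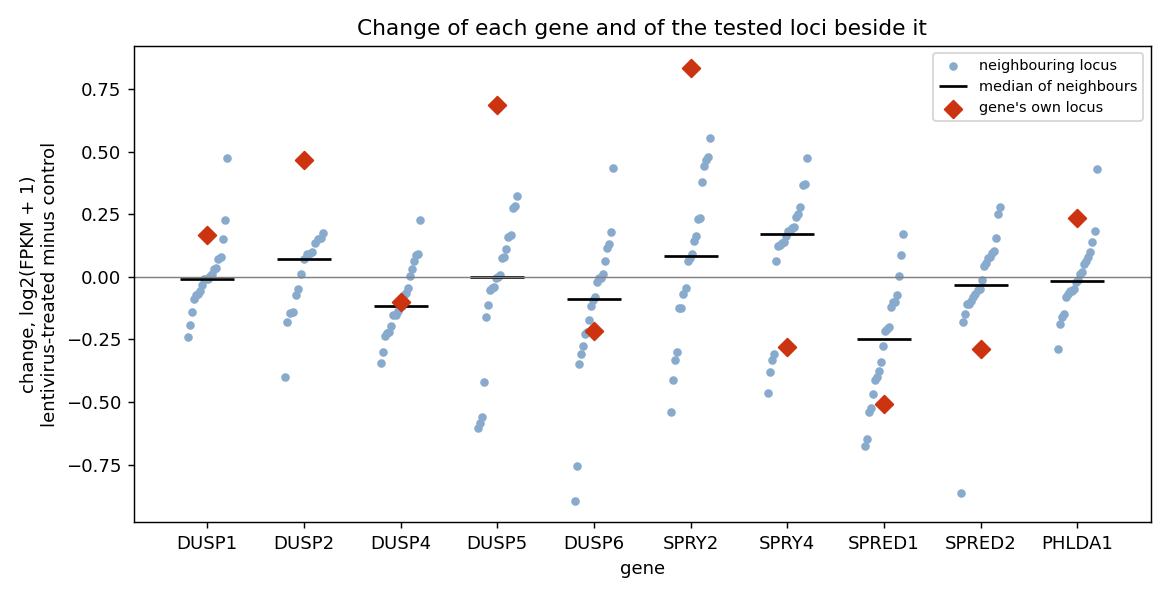
Change on the log2(FPKM + 1) scale of each gene's locus (diamond) and of the nearest tested loci on both sides (points, sorted by value; 20 per gene, 15 for DUSP2), with their median as a bar. SPRY2 and DUSP5 lie above all of their 20 neighbours, while the neighbours of SPRED1 have a median of -0.25 log2 and 4 of them lie at or below it.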

How the data were processed

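Poly-A RNA of 6 COS-1 libraries was sequenced, per the labels' protocols. The authors deposited FPKM values, 1 column per library. Cuffdiff, Cufflinks 2.1.1, Bowtie2 2.1.0.0, TopHat2 2.0.10 and CASAVA are named, per the submitters' processing notes, with no role or order; the genome build is not given in the sources used here. All positions are printed as deposited. The columns sum to 2094230 to 2206925 FPKM, and the number of reads is unknown, so no counting interval is given.

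The table pairs no row with a symbol. The 10 genes were matched by human Ensembl protein ID, whose symbols came with the list of genes, and all 10 rows lie on the chromosome that the RefSeq table of assembly mChlSab1.0.hap1 gives for the symbol. That table matched 0 of the deposited IDs, so SHOC2, a wider list of ERK feedback genes and markers of the cell line were not analysed here. Members and lists were chosen with earlier results of these data known.

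In R 4.3.3, limma 3.58.1 (lmFit and eBayes, trend by intensity) was run on log2(FPKM + 1), with group as the single term. Rows or loci with a mean of at least 1 FPKM were used. A run on simulated data with independent noise in each row had to return the size of planted changes. It held no shifts shared by neighbouring loci and set no limit on false calls. Loci join rows whose positions overlap, on either strand. Alternatives changed the pseudocount, filter, scaling, trend, replicate block and libraries used. Every gene of the list was named, whatever its value.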

Additional observations from a re-analysis of the deposited data

How the results depend on the processing

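With no filter, 1220 rows were called in place of 1842, and 1 feedback gene in place of 2, since SPRED1 (-0.51 log2) had a limma adjusted p of 0.0744. In the fit with the replicate block, limma called 0 rows (6084 at an unadjusted p under 0.05) and 0 feedback genes on their own row: SPRY2 (0.84 log2) and SPRED1 (-0.51 log2) had limma adjusted p of 0.121 and 0.143. Among loci 1774 were called with the block, against 3134 without it, with SPRY2, DUSP5 and SPRED1 called in both fits. Same-numbered libraries had correlations of deviations of 0.13, -0.028 and 0.0028 over rows, so the numbers are not shown to pair them. With the neighbours subtracted, 1888 loci were called, and SPRED1 (-0.24 log2) was not. Without 1 library, called rows numbered 48 to 118 and called loci 1444 to 2228; feedback genes called numbered 0 to 1 among rows and 3 among loci. In these fits SPRY2 ran from 0.81 to 0.87, SPRED1 from -0.56 to -0.43 and the locus of DUSP4, not called, from -0.30 to 0.024 log2, turning positive without control replicate 1. The untested SPRY4 moved from -0.28 to -0.67 and -0.079 log2 at pseudocounts of 0.1 and 5 and to -0.16 on the TPM scale, and DUSP2 from 0.15 to 0.38 at 0.1. Over TPM, median ratio and quantile scaling, all 60 values of the 10 genes, with row and locus counted apart, kept their direction. Genes with a locus of 1 row enter these 60 with the same FPKM in both. Quantile scaling was not applied to untested values, so the row of DUSP2 and both readings of SPRY4 could not move under it. A larger pseudocount shrinks the change of a low row by arithmetic. Values are smaller on the TPM scale, so the same pseudocount of 1 weighs more there. The cause of the other moves was not tested. Depth is unknown, so how much of the spread is counting error is not known.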
